A study of Mus musculus with 6 samples.

Results

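Inflammatory cytokines that activated conventional T cells make were examined in RNA-Seq of sorted regulatory T cells (Tregs) with and without Zfp335, a zinc finger transcription factor. The group held 10 genes, chosen by name as cytokines of conventional T cells outside the type 2 set: Ifng, Csf2, Tnf, Lta, Ltb, Il2, Il21, Il17f, Tnfsf11 and Tnfsf8. All 10 were among the 13709 rows of the count table, and all 10 were among the 13594 genes tested. The comparison was of 3 samples of Foxp3Cre mice (WT) with 3 samples of Foxp3Cre Zfp335fl/fl mice (KO), all on the C57BL/6 background and, per the study's methods, 2 weeks old. The cells of both groups were CD4+YFP+CD25+, and both groups carried the Foxp3 allele that makes YFP and Cre recombinase. Because Cre is driven by Foxp3, floxed Zfp335 is targeted only in cells that make or have made Foxp3, and the other Tregs of a KO mouse are targeted as well. The labels named lymph nodes in some fields and spleen in others, and did not say whether a sample was 1 mouse or a pool, so the p-values measure the spread between these samples, which may be technical.

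Tregs restrain the immune responses of other T cells and normally keep most inflammatory cytokine genes silent. In conventional T cells, signals through the T cell receptor activate the transcription factors NFAT, AP-1 and NF-κB, which switch cytokine genes on, while proteins that bind AU-rich stretches in the 3′ UTR of the mRNAs shorten the life of many of these transcripts. The cytokines examined fall into 3 kinds by role. IFN-γ, GM-CSF and IL-17F are secreted cytokines that act on or recruit other immune cells. IL-2 and IL-21 are growth factors whose receptors share the common γ chain. The others are ligands of the TNF family (TNF, lymphotoxin-α, lymphotoxin-β, RANKL and CD30L).

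To show the DNA on which these factors act, the 250 bases before the transcription start are printed for the 5 genes whose RefSeq start was also the start of the GENCODE gene: Ifng and Il21, which rose in KO Tregs, Tnfsf11, which fell, and the neighbors Tnf and Lta, which were not called. The sequences are from RefSeq on GRCm38.p6, the assembly that mm10 denotes, written 5′ to 3′ on the strand of the gene. Capitals mark matches to the NFAT core GGAAA and to the κB pattern GGGNNNNNCC on either strand.
Ifng, chr10:118440796-118441045, plus strand: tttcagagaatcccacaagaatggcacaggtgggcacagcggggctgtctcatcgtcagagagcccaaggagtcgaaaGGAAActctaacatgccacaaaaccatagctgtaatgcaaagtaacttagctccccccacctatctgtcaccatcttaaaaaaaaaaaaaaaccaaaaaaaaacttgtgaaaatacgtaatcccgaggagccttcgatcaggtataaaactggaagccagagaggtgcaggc
Il21, chr3:37232637-37232886, minus strand: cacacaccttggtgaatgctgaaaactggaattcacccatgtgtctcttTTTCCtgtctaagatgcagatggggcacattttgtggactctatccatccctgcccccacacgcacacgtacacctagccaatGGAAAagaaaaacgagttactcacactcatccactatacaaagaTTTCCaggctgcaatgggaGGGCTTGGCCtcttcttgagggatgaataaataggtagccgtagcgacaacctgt
Tnf, chr17:35202008-35202257, minus strand: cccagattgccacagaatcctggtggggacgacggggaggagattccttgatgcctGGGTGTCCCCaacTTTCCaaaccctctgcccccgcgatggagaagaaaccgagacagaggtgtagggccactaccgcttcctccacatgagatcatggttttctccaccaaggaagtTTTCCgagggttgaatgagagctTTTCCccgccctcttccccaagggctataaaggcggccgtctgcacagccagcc
Lta, chr17:35205352-35205601, minus strand: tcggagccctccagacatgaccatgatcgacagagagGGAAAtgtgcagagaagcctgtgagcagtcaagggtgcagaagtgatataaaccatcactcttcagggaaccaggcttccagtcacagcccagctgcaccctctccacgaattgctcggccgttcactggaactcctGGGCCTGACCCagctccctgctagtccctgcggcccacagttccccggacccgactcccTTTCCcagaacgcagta
Tnfsf11, chr14:78308044-78308293, minus strand: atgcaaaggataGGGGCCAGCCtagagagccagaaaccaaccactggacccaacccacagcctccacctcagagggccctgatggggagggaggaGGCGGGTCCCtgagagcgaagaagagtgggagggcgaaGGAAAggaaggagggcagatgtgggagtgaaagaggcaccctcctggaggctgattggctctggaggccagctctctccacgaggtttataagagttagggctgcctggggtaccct

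All 10 genes held at least 1 NFAT core in this window, as did 55.5% of 27025 promoters of the same length, and Tnf and Il21 held 3, as did 6.49% of promoters at that number or more. The κB pattern was found in 6 of the 10 genes and in 45.3% of promoters. It was found in Tnf, Lta, Ltb, Il2, Il21 and Tnfsf11, and not in this window of Ifng, Csf2, Il17f or Tnfsf8. In Ltb the NFAT core lay inside a κB match. No gene held the AP-1 pattern TGANTCA, which 6.87% of promoters held, or the cAMP response element TGACGTNA, which 2.58% held. The T-box pattern AGGTGT, searched on both strands, was in Tnf, Ltb and Il21 and in 12.1% of promoters, and the TATA box TATAAA, searched on the strand of the gene, was in 5 of the 10 genes and in 8.12% of promoters. The TATA match ended 24 to 26 bases before the start in Ifng, Tnf, Il2 and Il17f. These matches are letters in a window and were not measured as binding. The RefSeq start lay 232 bases upstream of the GENCODE gene start in Csf2 and inside the GENCODE gene in Ltb, Il2, Il17f and Tnfsf8, so the window of these 5 genes depends on the annotation.

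**Figure D1:**
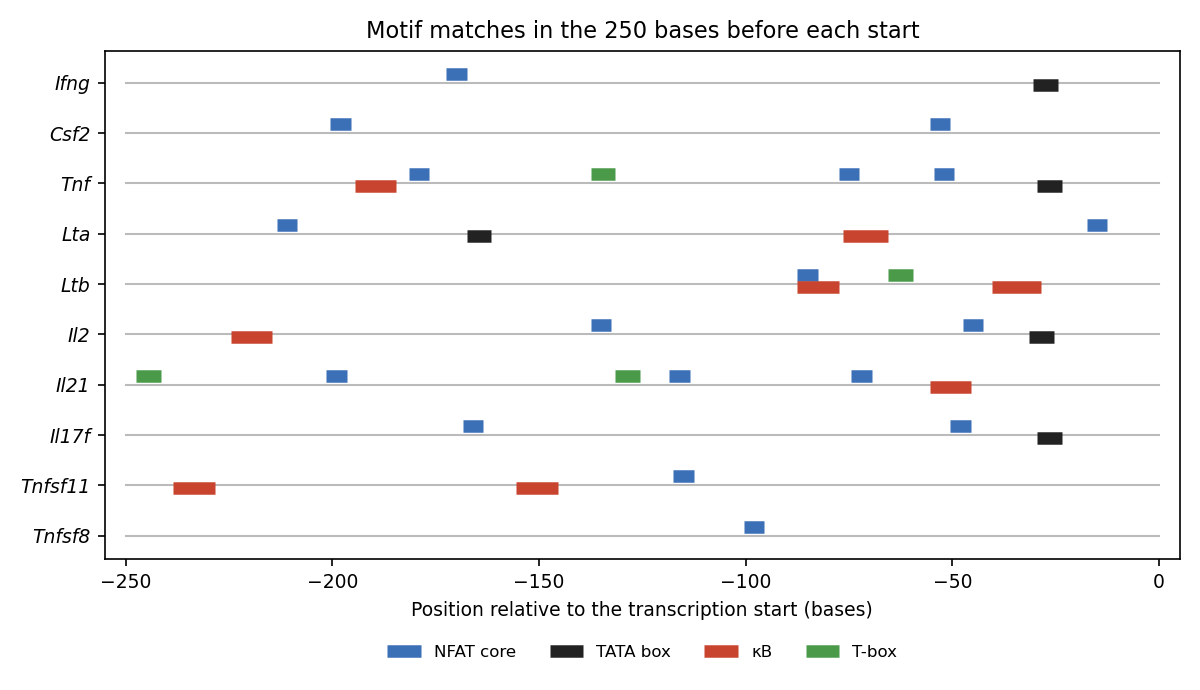
Positions of motif matches (colored bars) in the 250 bases before the RefSeq transcription start of each gene, with the distance from the start in bases on the x axis and 1 gene per line. All 10 genes have at least 1 NFAT core, and κB matches are present in 6 of 10.

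The samples held between 32032631 and 40728419 counts. Zfp335, the deleted gene, was at 101, 94.3 and 103 CPM (counts scaled to library size) in the WT samples and at 37.0, 37.9 and 40.2 CPM in the KO samples, a change of -1.37 on the log2 scale (SE 0.07, adjusted p = 2.14e-05). The summed level of 5 Treg markers was 3025 to 4324 CPM in WT and 2420 to 2456 CPM in KO, and Foxp3 and Ikzf2 were lower in KO. WT sample 3 stood apart from the other WT samples, with the highest sum of Treg markers and a red cell marker sum of 23.3 CPM against 84.6 and 101 CPM. The biological coefficient of variation was 0.263 among WT samples, 0.126 among WT samples without sample 3, and 0.0703 among KO samples. Calls required a fold change above 1.5 in either direction together with p under 0.05 and, after adjustment, under 0.1. In bulk samples a lower or higher level cannot be divided between the number of cells that make a transcript and the amount per cell.

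Of the 10 cytokine genes, 5 were called: Ifng, Csf2, Il21 and Tnfsf8 were higher in KO and Tnfsf11 was lower. Tnf, Lta, Ltb, Il2 and Il17f were not called. Over all genes tested, 24.4% were called, 11.9% as higher and 12.5% as lower. The median log2 fold change was 0.76 over the 10 genes and -0.04 over all genes tested. The 3 KO samples were all above the 3 WT samples for 5 genes (Ifng, Csf2, Il2, Il21 and Tnfsf8) and all below them for 3 genes (Lta, Ltb and Tnfsf11), while the groups overlapped for Tnf and Il17f. Groups did not overlap for 53.8% of all genes tested, with KO above WT for 26.2% and KO below WT for 27.6%. The summed level of the 10 genes was 650 to 713 CPM in WT and 621 to 637 CPM in KO. Ltb held 64.5% to 72.3% of this sum in WT and 48.2% to 49.3% in KO. Without Ltb, the sum was 198 to 237 CPM in WT and 321 to 323 CPM in KO.

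**Figure D2:**
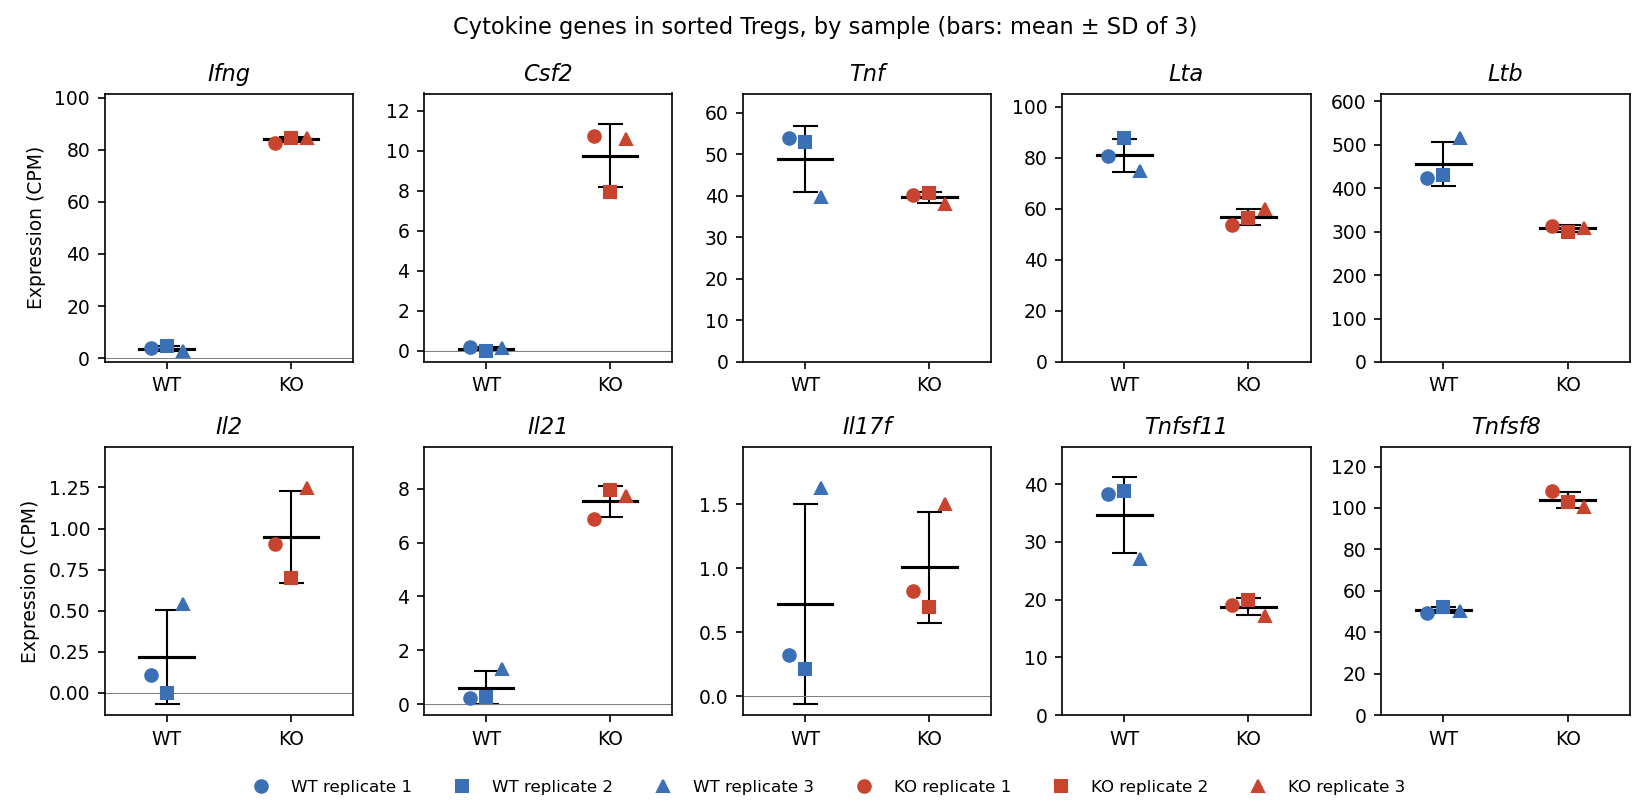
Expression in CPM (y axis, from 0, with its own scale in each panel) of the 10 cytokine genes in the 3 WT samples (blue) and the 3 KO samples (red), with black bars for the mean ± SD. Ifng was at 2.64 to 4.54 CPM in WT and 82.8 to 84.7 CPM in KO. Csf2 was near 0 in WT and at 7.94 to 10.7 CPM in KO. WT sample 3 (blue triangle) was the highest WT sample for Ltb, Il2, Il21 and Il17f.

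Ifng (chr10:118441046-118445892, plus strand, mm10) encodes IFN-γ, the defining cytokine of Th1 cells and an activator of macrophages. It was at 3.78, 4.54 and 2.64 CPM in the WT samples and at 82.8, 84.7 and 84.4 CPM in the KO samples. Every KO sample was far above every WT sample, and the KO samples lay within 2 CPM of each other. The means were 3.65 ± 0.953 and 84.0 ± 1.04 CPM (SD), a log2 fold change of 4.52 (95% CI 4.11 to 4.94, SE 0.18, adjusted p = 7.11e-06). It ranked 19th by p among all genes tested. Ifng overlapped another annotated gene, Gm49751, on the same strand, and reads from shared bases could not be separated.

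Csf2 (chr11:54247271-54249667, minus strand) encodes GM-CSF, which acts on granulocytes, macrophages and dendritic cells. Its counts were 6, 0 and 4 in WT and 392, 319 and 374 in KO, or 0.163, 0 and 0.120 CPM against 10.7, 7.94 and 10.6 CPM. The WT level was thus at the limit of detection, at 10 counts over 3 samples. The log2 fold change of 6.61 (95% CI 5.36 to 7.86, SE 0.54, adjusted p = 0.000127) was the largest of the 10 genes, and it ranged from 6.06 to 7.38 over the alternative settings. Csf2 overlapped an antisense gene, Gm12223, whose reads could not be separated because use of the strand in counting was not stated. Il3, a neighbor 15.6 kb away on chromosome 11 that encodes another growth factor of myeloid cells, was at 0 counts in all 3 WT samples and at 2.90, 2.59 and 3.01 CPM in KO. Against the level of 3 counts in a WT library (0.0913 CPM), Il3 was at least 31.0-fold higher.

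Il17f (chr1:20777146-20790617, minus strand) encodes a cytokine of Th17 cells that recruits neutrophils. It was at 0.326, 0.213 and 1.62 CPM in WT and at 0.821, 0.697 and 1.503 CPM in KO. The highest value of all 6 belonged to WT sample 3, so the groups overlapped. Its log2 fold change of 0.48 (95% CI -1.30 to 2.27, adjusted p = 0.662) left both a fall and a rise of over 2-fold inside the interval. Without WT sample 3, Il17f was called higher in KO, with a log2 fold change of 1.87 and an adjusted p of 0.0266.

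Il2 and Il21 lie 96.8 kb apart on chromosome 3 with no protein-coding gene between them. Il21 (chr3:37222759-37232636, minus strand) encodes a cytokine of follicular helper T cells that drives antibody responses. It was at 0.244, 0.274 and 1.32 CPM in WT and at 6.87, 7.96 and 7.74 CPM in KO. WT sample 3 was 5.10 times the mean of the other WT samples, and all KO samples were above it. In KO relative to WT, Il21 rose by 3.62 on the log2 scale (95% CI 2.24 to 4.99, SE 0.59, adjusted p = 0.00247), and without WT sample 3 it was 4.84. Il21 overlapped the antisense gene Gm12534.

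Il2 (chr3:37120523-37125959, minus strand) encodes the T cell growth factor that Tregs depend on but hardly make. Its counts were 4, 0 and 18 in WT and 33, 28 and 44 in KO, or 0.109, 0 and 0.541 CPM against 0.903, 0.697 and 1.25 CPM. The KO samples were all above the WT samples, yet WT sample 3 was 9.95 times the mean of the other WT samples. The log2 fold change of 2.12 (95% CI -0.11 to 4.34, SE 0.96, adjusted p = 0.12) did not pass the test. Il2 was called by DESeq2 (log2 fold change 2.16, adjusted p = 0.0719) and by limma with sample weights (4.08, adjusted p = 0.00484), and without WT sample 3 (3.98, adjusted p = 0.00207). It overlapped the protein-coding gene Adad1 on the opposite strand, so its few reads are uncertain.

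Tnf, Lta and Ltb stand side by side on chromosome 17, with 3060 bases between Ltb and Tnf and 1157 bases between Tnf and Lta. TNF drives inflammation in many cell types, lymphotoxin-α is secreted or joins lymphotoxin-β at the cell surface, and the joined form shapes lymphoid organs. None of these 3 genes was called in either direction. Tnf (chr17:35199381-35202007, minus strand) was at 53.8, 52.9 and 39.6 CPM in WT and at 40.1, 40.5 and 38.1 CPM in KO. WT sample 3 lay inside the KO range and the other WT samples above it. Its log2 fold change was -0.30 (95% CI -0.59 to -0.02, adjusted p = 0.0907), so the mean in KO was 81.2% of that in WT and the fold was below the cutoff.

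Lta (chr17:35203165-35205351, minus strand) was at 80.6, 87.7 and 74.7 CPM in WT and at 53.9, 56.7 and 59.9 CPM in KO. Ltb (chr17:35194439-35196320, plus strand) was at 423, 430 and 515 CPM in WT and at 314, 299 and 309 CPM in KO. For both genes all KO samples were below all WT samples. Each overlapped a microRNA gene on its own strand, Mir6974 for Lta and Mir6973a for Ltb. On the log2 scale the change of Lta was -0.51 (SE 0.08, adjusted p = 0.0025) and that of Ltb was -0.57 (SE 0.09, adjusted p = 0.00207). Each had a small adjusted p and a fold under 1.5, which is 0.58 on the log2 scale. Ltb was called lower in KO with library totals alone (-0.61), without WT sample 1 (-0.62) and without WT sample 2 (-0.61), and it was not called without WT sample 3 (-0.48). The intervals of the 3 genes overlapped, and whether their changes differed from each other was not tested.

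Tnfsf11 (chr14:78277445-78308043, minus strand) encodes RANKL, which drives osteoclasts and the development of lymph nodes. It was at 38.2, 38.7 and 27.0 CPM in WT and at 19.2, 19.99 and 17.2 CPM in KO. All KO samples were below all WT samples, with WT sample 3 the lowest of its group. Tnfsf11 changed by -0.88 on the log2 scale (95% CI -1.23 to -0.53, SE 0.15, adjusted p = 0.00308), and Tnfsf11 was called in the main test and in all 15 alternatives. Tnfsf8 (chr4:63831308-63861347, minus strand) encodes CD30L, the ligand of CD30 on activated lymphocytes. It was at 49.5, 52.2 and 50.3 CPM in WT and at 108, 103 and 100 CPM in KO. The SD was 2.64% of the mean in WT and 3.67% in KO. Its log2 fold change of 1.03 (95% CI 0.88 to 1.19, SE 0.07, adjusted p = 4.16e-05) was the most precise of the 10 by its SE. Of the 5 TNF family members, 1 was called higher, 1 was called lower and 3 were not called. The log2 fold changes and 95% intervals of Tnf, Lta, Ltb and Tnfsf11 all lay below 0, and those of Tnfsf8 lay above 0.

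**Figure D3:**
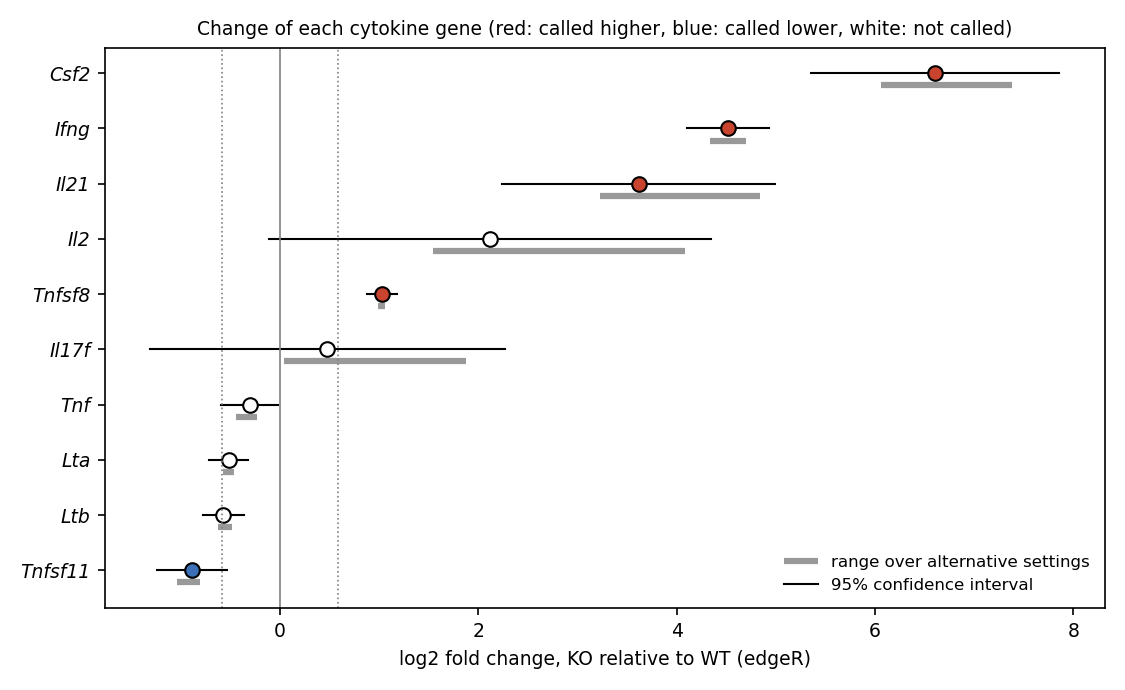
The log2 fold change (x axis, KO relative to WT) of each cytokine gene, with its 95% confidence interval (thin line) and its range over the alternative settings (grey bar). Dotted lines mark a fold change of 1.5 in each direction, and the values run from -0.88 for Tnfsf11 to 6.61 for Csf2.

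Levels were also compared between genes per kb of the longest coding transcript in GENCODE M21. In WT Tregs the order in CPM per kb was Ltb (393), Lta (58.6), Tnf (29.8), Tnfsf11 (15.5), Tnfsf8 (13.3) and Ifng (3.02), with the other 4 genes below 1 CPM per kb. Ranges of samples overlapped for the neighbors Tnfsf11 and Tnfsf8, and for Il17f, Il21, Il2 and Csf2. In KO Tregs the order was Ltb (265), Ifng (69.5), Lta (41.1), Tnfsf8 (27.3), Tnf (24.2), Csf2 (12.2), Tnfsf11 (8.41), Il21 (2.45), Il17f (0.855) and Il2 (0.830), with overlap only between Il17f and Il2. Ltb held 76.4% of the summed level per kb of the 10 genes in WT and 58.6% in KO, and Ifng held 0.587% and 15.4%. The level of Il21 is uncertain on this scale, since its coding transcripts were 3072 and 529 bases long.

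The 3′ UTRs of these genes were compared for the AU-rich pentamer ATTTA and its longer form TATTTAT, the sites of mRNA decay proteins of the Zfp36 family. Of the 10 genes, 9 held TATTTAT, as did 30.5% of the 12858 genes tested with a 3′ UTR, and 9 were above the median of 1.3 ATTTA per kb. Csf2 held 9 ATTTA in 317 bases, or 28.4 per kb, which put it at percentile 99.95 of these genes. Tnf held 8 in 764, Il2 7 in 581 and Ifng 6 in 631. Tnfsf8 held 10 in a longer 3′ UTR of 2799 bases, and Tnfsf11 6 in 1131. Ltb held none. Genes with many sites were found among those that rose (Csf2, Ifng and Tnfsf8), among those not called (Tnf and Il2) and in Tnfsf11, which fell. The count for Il21 was 9 in the longer coding transcript and 0 in the shorter.

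**Figure D4:**
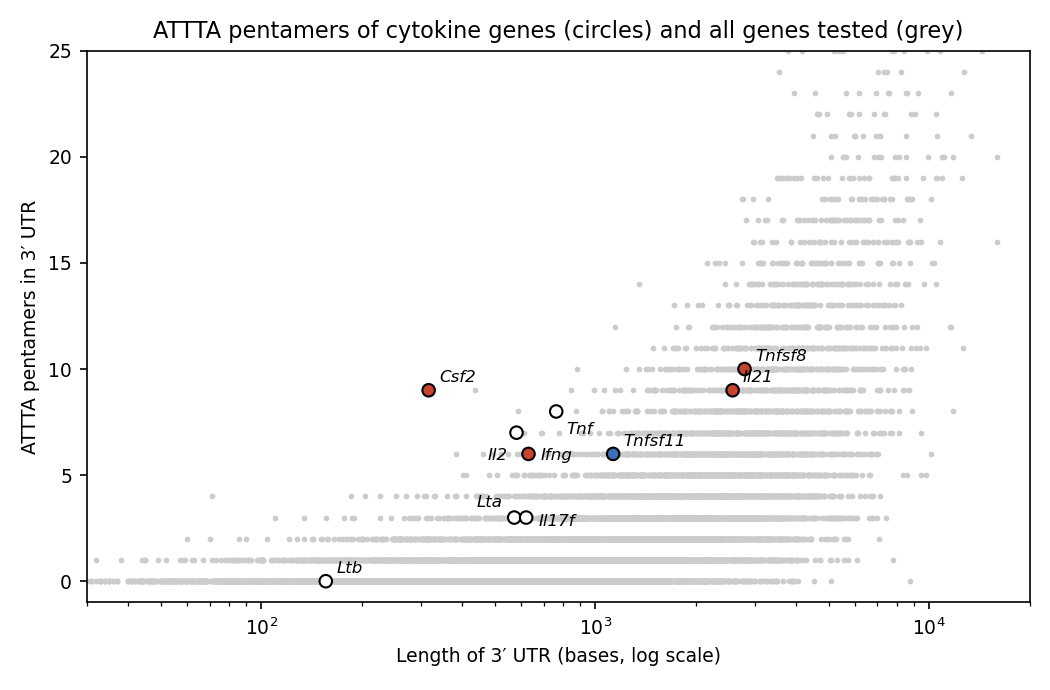
Number of ATTTA pentamers (y axis, which ends at 25) against the length of the 3′ UTR in bases (x axis, log scale) for all genes tested (grey) and the 10 cytokine genes (circles: red called higher in KO, blue called lower, white not called). Csf2 has 9 in 317 bases, and Ltb has none.

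Of 12 proteins that bind or cut cytokine mRNAs, 4 were called, all as lower, and the median log2 fold change was -0.18. That is 33.3% called, against 24.4% of all genes tested. Zfp36l1, which binds AU-rich elements, was at 679, 745 and 781 CPM in WT and at 230, 279 and 263 CPM in KO, a change of -1.51 on the log2 scale (SE 0.09, adjusted p = 3.84e-05). Its paralog Zfp36l2 fell by 0.87 on the log2 scale (adjusted p = 0.0173), with WT sample 3 at 943 CPM against 523 and 519 CPM, and was not called without that sample (-0.53). Zc3h12d, a relative of the nuclease Regnase-1, had a log2 fold change of -0.78 (adjusted p = 0.000282), and Tia1, which represses translation of Tnf mRNA, one of -0.63 (adjusted p = 0.00269), which was under the fold cutoff without WT sample 2 (-0.56).

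Among 31 transcription factors known to act on these cytokine genes, 8 were called higher and 2 lower, with a median log2 fold change of 0.23. That is 32.3% called, against 24.4% of all genes tested. Tbx21 encodes T-bet, the master regulator of Th1 cells, which drives Ifng. It was at 6.00, 4.99 and 5.53 CPM in WT and at 70.8, 74.2 and 68.8 CPM in KO, a change of 3.69 on the log2 scale (SE 0.10, adjusted p = 1.31e-06). Eomes, a T-box relative of T-bet, rose by 2.29 on the log2 scale (adjusted p = 0.000437) and Runx3, a partner of T-bet, by 1.91 (adjusted p = 4.36e-05). Bhlhe40, a factor known for supporting GM-CSF production, was at 98.6, 103 and 192 CPM in WT and at 528, 543 and 556 CPM in KO, a log2 fold change of 2.05 (adjusted p = 0.000653). Bcl6, the regulator of follicular helper cells, was at 42.8, 46.6 and 22.3 CPM in WT and at 13.3, 13.9 and 11.9 CPM in KO, a log2 fold change of -1.51 (adjusted p = 0.00288). Fos, a part of AP-1, had a log2 fold change of -1.23 (adjusted p = 0.0799) that rested on WT sample 3, at 712 CPM against 191 and 191 CPM, and it was -0.31 without that sample.

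Of the 15 receptor genes tested, 4 rose and 1 fell, and their median log2 fold change was 0.21. That is 33.3% called, against 24.4% of all genes tested. Ifngr1, the ligand-binding chain of the IFN-γ receptor, was at 128, 134 and 235 CPM in WT and at 410, 374 and 384 CPM in KO, a log2 fold change of 1.23 (adjusted p = 0.00364). Ifngr2, its partner chain, went the other way, at 56.4, 56.9 and 58.6 CPM in WT and 37.9, 38.2 and 40.4 CPM in KO. The log2 fold change of Ifngr2 was -0.56 (adjusted p = 0.000775), under the fold cutoff, so it was not called. Csf2rb, the signaling chain of the GM-CSF receptor, was at 0.951, 0.304 and 0.210 CPM in WT and 5.36, 6.40 and 6.07 CPM in KO (log2 fold change 3.58, adjusted p = 0.00138). Csf2rb2, its near-identical copy, rose by 1.44 on the log2 scale (adjusted p = 0.00818), and reads can be assigned to the wrong one of this pair. Csf2ra, the other chain of the GM-CSF receptor, was not called (log2 fold change -0.48, adjusted p = 0.226), and its groups overlapped. Il2rb, a chain of the IL-2 receptor, rose by 0.59 (adjusted p = 0.0309), just past the fold cutoff, and was not called without WT sample 1 (0.49), WT sample 2 (0.45) or KO sample 2 (0.58). Tnfrsf1b, the TNF receptor typical of Tregs, was at 420, 406 and 529 CPM in WT and at 165, 172 and 179 CPM in KO, a change of -1.39 on the log2 scale (SE 0.11, adjusted p = 0.000108).

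Genes known to respond to IFN-γ, to TNF and to IL-2 were counted in 3 lists. Whether these cytokines induced them in these samples was not tested. Over all genes tested, 24.4% were called. Of 18 genes of the IFN-γ response, 11 (61.1%) were called higher and 0 lower by edgeR, with a median log2 fold change of 0.75. All 18 had a log2 fold change above 0, as did 6405 of the 13594 genes tested. Gbp2, an IFN-γ-induced GTPase, was at 71.6, 78.4 and 130 CPM in WT and at 505, 478 and 477 CPM in KO, a log2 fold change of 2.38 (adjusted p = 0.000202). Iigp1, another such GTPase, had a log2 fold change of 1.93, Cxcl9, a chemokine for Th1 cells, one of 2.80, and Ciita, the activator of MHC class II genes, one of 1.40. Of 12 genes of the TNF and NF-κB response, 2 were higher and 1 lower (25% called, near the share of all genes), with a median of 0.10. Bcl3 (0.79) and Icam1 (0.59) rose, and Cd83, an activation marker, fell by 2.01 on the log2 scale (adjusted p = 0.000159). Icam1 was not called when any sample other than WT sample 3 was left out (0.42 to 0.61). Of 12 genes of the IL-2 and STAT5 response, 2 were higher and 0 lower by edgeR (16.7% called), with a median of 0.05. This list held Lta, itself among the cytokine genes examined, Il2ra, also among the receptors, and Osm, also among the other T cell cytokines. Gzmb, which encodes the cytotoxic protease granzyme B, was at 12.1, 12.2 and 36.8 CPM in WT and at 437, 446 and 438 CPM in KO (log2 fold change 4.44, adjusted p = 0.000316), and Osm, a cytokine of the IL-6 family, rose by 0.87.

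Other ligands and cytokines were counted beside the 10 genes. Of 10 other TNF family ligands, 6 were higher and 2 lower, with a median log2 fold change of 1.40. That is 80% called, against 24.4% of all genes tested. Cd40lg, which encodes the ligand that activates B cells and dendritic cells, was at 23.7, 20.7 and 13.9 CPM in WT and at 59.4, 63.4 and 64.8 CPM in KO, a log2 fold change of 1.68 (adjusted p = 0.000409). Fasl, a death ligand, rose by 1.90 on the log2 scale, Tnfsf9 by 1.19 and Tnfsf13b by 0.93, though Tnfsf13b was not called when any KO sample was left out (0.86 to 0.99). Tnfsf10, which encodes TRAIL, fell by 0.78. Of 15 other T cell cytokines tested, 8 were higher and 2 lower (66.7% called), with a median of 1.84. The type 2 cytokine Il13 was at 0.0815, 0.426 and 0.210 CPM in WT and at 119, 133 and 130 CPM in KO, a log2 fold change of 9.07 (adjusted p = 2.04e-06). Il4 had a log2 fold change of 4.66. Il5 was at 0 counts in all WT samples and at 28.1, 30.7 and 32.1 CPM in KO, at least 332-fold higher against 3 counts in a library, and Il16 fell by 0.86 on the log2 scale.

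**Figure D5:**
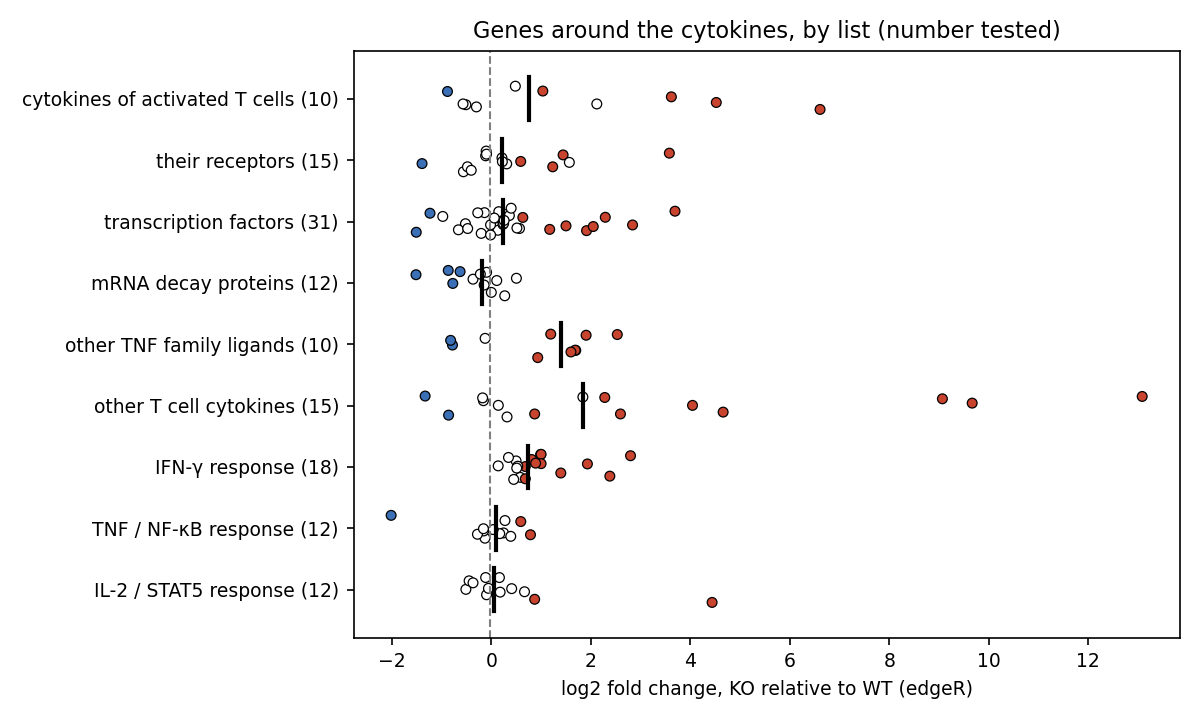
The log2 fold change (x axis, KO relative to WT) of each gene tested in the 10 cytokine genes and in the 8 lists around them, with the number tested in brackets (red called higher in KO, blue called lower, white not called). Lta, Il2ra and Osm are drawn more than once. Black bars are list medians and the dashed line is the median of all genes tested, -0.04; fitted values of Il5 and Il3, at 13.1 and 9.67, come from WT counts of 0 and are no measure of size.

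By the root mean square difference of log2 CPM values centered on the mean of each gene over the 6 samples, the 5 genes most like Ifng were Smpdl3b (0.11), Il4 (0.20), Ggt1 (0.20), Ncald (0.21) and Alox5 (0.25). Smpdl3b was at 1.09, 1.70 and 0.841 CPM in WT and at 26.7, 27.2 and 26.5 CPM in KO. Ggt1, which encodes a γ-glutamyltransferase, was at 3.04, 4.75 and 1.74 CPM in WT and at 64.8, 62.8 and 62.9 CPM in KO. As for Ifng, WT sample 2 was the highest and WT sample 3 the lowest of the WT samples in both genes. Both were picked for likeness to Ifng over these same samples, so this order is no separate result. Il4, at 0.407, 0.335 and 0.270 CPM in WT, and Ncald, at 0.652, 0.792 and 0.691 CPM in WT, did not share it. Alox5, which encodes 5-lipoxygenase, was at 0 counts in all WT samples and at 1.12 to 1.47 CPM in KO. Its likeness to Ifng therefore depends on the prior count of 2 used for log2 CPM.

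Markers of other cell types were read beside these results. Some sums were higher in KO, that of B cells was lower, and others overlapped between the groups. The summed level of 4 NK cell markers was 3.78 to 5.89 CPM in WT and 15.4 to 17.3 CPM in KO, and 3 of the 4 were called higher, of which Eomes is also among the transcription factors above. Eomes made up most of the KO sum, at 11.1 to 11.6 CPM, and the other 3 markers summed to 1.87 to 2.64 CPM in WT and 3.80 to 5.99 CPM in KO. The NK receptor gene Ncr1 was at 0.543, 0.487 and 0.120 CPM in WT and at 0.876, 0.697 and 1.25 CPM in KO and was not called. The sum of 6 monocyte and macrophage markers was 22.2 to 28.7 CPM in WT and 52.3 to 59.3 CPM in KO, with 4 of 6 higher, and the sum of 6 dendritic cell markers was 56.4 to 97.5 and 138 to 159 CPM, with 3 of 6 higher. Of 7 neutrophil markers listed, only S100a8 and S100a9 were in the table, at 0 counts in WT and summing to 3.57 to 5.42 CPM in KO. Ngp, Camp, Ly6g, Mpo and Elane had no row. The paper reports high S100a8 and S100a9 in a dysfunctional Treg subset of its single-cell data, and the source of these transcripts here was not tested. The sum of 3 T cell markers was 1402 to 1648 CPM in WT and 1398 to 1482 CPM in KO, with none of the 3 called. They moved in opposite directions under the fold cutoff. Cd3e (log2 fold change -0.45, adjusted p = 0.0114) and Cd3g (-0.49, adjusted p = 0.0136) were lower in every KO sample. Cd4 (0.26, adjusted p = 0.0143) was higher in every KO sample. Of the CD8 T cell markers, Cd8a was at 2.31, 1.005 and 2.25 CPM in WT and at 4.11, 2.86 and 4.17 CPM in KO and was called higher (log2 fold change 0.997, SE 0.37, adjusted p = 0.0665). Cd8b1 was not called, and the sum of Cd8a and Cd8b1 was 9.32 to 13.2 CPM in WT and 12.0 to 12.7 CPM in KO. The sum of 5 B cell markers was 17.99 to 20.1 CPM in WT and 12.1 to 12.6 CPM in KO, with 1 of 5, Cd79b, called lower. For γδ and NKT cells, 3 markers summed to 1.37 to 2.46 CPM in WT and 1.86 to 2.18 CPM in KO, and Kit, the mast cell marker measured, was at 20.6 to 30.7 and 21.6 to 26.7 CPM. The part of these cells in the cytokine results was not tested.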

How the data were processed

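Per the study's methods and the processing notes of the submitters, reads were filtered with SOAPnuke, aligned to mm10 with HISAT2 and quantified with StringTie, and the study's own test was DESeq2. The authors deposited 1 table of raw whole-number counts, with a row per gene and a column per sample. The annotation, and whether strand was used, are not given in the sources used here. The smallest sum of a row was 60, so rows with low counts were absent.

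Counts were tested with R 4.3.3 and edgeR 4.0.16: filterByExpr (minimum count 10, which removed 115 rows), TMM scaling, and the two-sided quasi-likelihood F-test of KO against WT with no covariate, with Benjamini-Hochberg adjustment over the 13594 genes tested. CPM used the TMM-scaled totals, and an SE was the log2 fold change divided by the square root of F. Calls used the study's cutoffs (fold above 1.5, p under 0.05, adjusted p under 0.1). The script was tested on simulated counts. Library totals were 32032631 to 40728419, so 3 counts were 0.0747 to 0.0913 CPM. Correlations of deviations between WT and KO samples of the same replicate number were 0.04, 0.04 and -0.01. Those between different numbers ran from -0.06 to 0.03. With 3 samples per group, these values could not show whether the numbers pair samples.

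The 10 genes and all lists were chosen with earlier results of these data known, so no p was computed over a list. Named from each list were the called genes whose mean reached 1 CPM and whose groups did not overlap, at most 4 rises and 4 falls by size of change, and the 5 genes most like Ifng (prior count 2). Ifngr2, Csf2ra and single markers of cell types were given outside this rule. The lists were receptors, transcription factors, mRNA decay proteins, TNF family ligands, other T cell cytokines, genes of the IFN-γ, TNF and IL-2 responses, and markers of T cells, Tregs, CD8 T cells, B cells, NK cells, γδ and NKT cells, monocytes and macrophages, neutrophils, mast cells, dendritic cells and red cells. Alternatives were DESeq2 1.42.0, limma 3.58.1 (voomWithQualityWeights), RLE scaling, library totals, 2 other filters, an adjusted p under 0.05 without the fold cutoff, glmTreat, the replicate number as a block, and leaving out each sample.

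Gene positions, 3′ UTRs and transcript lengths came from GENCODE M21 (GRCm38), with the longest coding transcript per gene, a rule set after the Il21 isoforms were seen. Promoters came from RefSeq (GRCm38.p6), with all 10 genes matched, and overlapping matches of a motif were merged.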

Additional observations from a re-analysis of the deposited data

How the results depend on the processing

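No log2 fold change of the 10 cytokine genes or of the 39 other named genes changed sign under the 15 alternatives. The 5 called cytokine genes were called in every alternative that tested them. With at least 10 counts in every sample, 6 of the 10 genes were tested and 3 were called, 2 of them higher, and 4 other T cell cytokines were called, because fewer genes were tested. Genes called lower among the 10 were 2 with library totals alone (Ltb added), 3 at an adjusted p under 0.05 without the fold cutoff (Lta and Ltb added), and 1 to 2 when each sample was left out. Over the whole table, 5244 genes (2610 higher, 2634 lower) were called at an adjusted p under 0.05 without the fold cutoff, and 1686 (941 higher, 745 lower) when glmTreat required a fold above 1.5, against 3318 in the main test, and 2867 to 3667 when each sample was left out. The cutoff without a fold called 16 transcription factors and 6 genes of the IL-2 response. With glmTreat the calls were 6 transcription factors, 2 mRNA decay proteins, 5 TNF family ligands and 6 genes of the IFN-γ response. With limma 5 genes of the TNF response were called. Leaving out each sample gave 2 to 5 called genes for the TNF response, 2 to 4 for the IL-2 response and 5 to 9 for the TNF family ligands, where the highest counts of the TNF and IL-2 lists came without WT sample 3 and the 5 ligands without KO sample 2. With limma, Il17f was called (1.58, adjusted p = 0.081), as it was without WT sample 3. With the replicate number as a block, 3190 genes and 6 of the 10 cytokine genes were called, Il2 being added (log2 fold change 2.69). Whether the numbers pair the samples is not known. The depth limits Csf2 in WT (10 counts in all) and Il2 (22 counts in WT).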

Other observations

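Genes of the Th17 program other than Il17f were read by sample, chosen after their values were seen. Il22, a cytokine that acts on epithelia, was at 0, 0 and 3.60 CPM in the WT samples and at 3.39, 4.26 and 5.22 CPM in the KO samples, and its change was 1.84 on the log2 scale (SE 1.37, adjusted p = 0.329). Il17a was at 0.109, 0 and 0.661 CPM in WT and at 0.274, 0.871 and 0.284 CPM in KO and was below the count filter. Il10, the suppressive cytokine of Tregs, was at 11.8, 12.1 and 34.997 CPM in WT and at 21.2 to 22.03 CPM in KO, with a log2 fold change of 0.14 (adjusted p = 0.812). In all 3 genes WT sample 3 was the highest WT sample, and the groups of samples overlapped. Against the mean of the other WT samples, WT sample 3 was at 0.636 times for Ifng, 0.742 times for Tnf and 0.701 times for Tnfsf11, and at 9.95 times for Il2, 6.02 times for Il17f and 5.10 times for Il21.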
